A study of Mus musculus with 4 samples.

Results

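The genes described here encode the peptide hormones, neuropeptides and granule proteins of the gut that stood out in single-cell libraries of mouse intestinal adenomas: Chga, Chgb, Cartpt, Pnoc, Nts, Cck, Gcg, Sct, Tac1 and Sst, 10 of the 27514 genes shared by the 4 gene tables. They were chosen from their levels and shares of positive cells in adenoma cells and in the other epithelial cells of these same libraries. The levels in those classes are therefore a description, and the difference between the classes was not tested for them. The comparison of the labelled genotypes uses the same levels, so its p-values and calls for these genes are also only a description. The libraries came from C57BL/6 mice aged 11 weeks, labelled Male, with small intestinal tumors that were dissociated without a sort, 3 to 10 tumors pooled for each library. The group ApcMin had the genotype ApcMin/+;Lef1 +/+, and the group VApcMinL the genotype ApcMin/+;Lef1 fl/fl; Villin-Cre, with Cre under the Villin promoter, which is active in gut epithelium. Both groups carried the Min allele of Apc, no library without it was analysed here, and each group had 2 libraries, replicate 1 made with reagent kit version 2 and replicate 2 with version 3. Values per library are given in the order ApcMin 1, ApcMin 2, VApcMinL 1 and VApcMinL 2.

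Enteroendocrine cells are rare hormone-releasing cells scattered through the intestinal epithelium. They arise through a programme led by the transcription factors Neurog3 and Neurod1, store peptides in dense-core granules built with chromogranins, and cut them from precursors with prohormone convertases. Chromogranin A (Chga) and chromogranin B (Chgb) mark most of these cells, whereas cholecystokinin (Cck), secretin (Sct), glucagon-like peptides (Gcg), neurotensin (Nts), somatostatin (Sst) and substance P (Tac1) are each made by some of them. Cartpt encodes the peptide CART, best known in neurons, and Pnoc encodes the precursor of nociceptin, a neuropeptide that acts through the receptor Oprl1. The question followed here was whether the UMIs (unique molecular identifiers, one for each captured RNA molecule) of these genes lay in endocrine cells or in adenoma cells that showed no endocrine programme.

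Barcodes with at least 1000 UMIs and at most 20% mitochondrial UMIs were kept, 12400 in all, with 2146 to 4449 per library and a median depth of 8453 to 25465 UMIs. Of these, 9890 were epithelial by marker genes. Adenoma cells were epithelial cells with at least 2 of 8 Wnt target genes and 1 such UMI per 10000, and numbered 621, 445, 722 and 2342. The other epithelial cells numbered 1071, 1466, 1538 and 1685, and 2510 cells were not epithelial. Endocrine-gated cells carried at least 3 of 14 endocrine genes, none of them among the 10 described here, and numbered 12, 18, 12 and 42, of which 9 also met the adenoma gate. The pair of version 2 libraries shared 18 kept barcodes, ApcMin 1 and VApcMinL 2 shared 1, and no other pair shared any. Lef1, the targeted gene, was at 8.45, 30.8, 25.2 and 20.9 CPM (UMIs of the gene per 1000000 UMIs of the class) in adenoma cells, which did not separate the labelled genotypes. Where its 3′ tags lie relative to the deleted part was not examined, so Lef1 is not used here as a check of the labels. Xist, the RNA of the inactive X chromosome, was at 0.135, 0.0592, 1110 and 315 CPM in the same cells, high in both libraries labelled VApcMinL although all mice were labelled Male, so genotype and whatever set Xist apart cannot be told apart.

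The 10 genes lie on 9 chromosomes of the mouse genome (GRCm38), and all are protein coding. RefSeq promoter windows of 300 bases (250 before the transcription start and 50 from it on, GRCm38.p6) were found for 9 of them, all but Pnoc. The cAMP response element TGACGTCA, which reads the same on both strands, occurred once each in the windows of Chgb, Cartpt and Sst, beginning 72, 112 and 48 bases before the start. It was thus in 3 of 9 windows, against 1.79% of 32851 promoter windows of that length. The letters CTTTGAT, bound by TCF and LEF factors and searched on both strands, were in 0 of 9 windows against 3.73% of all, and the general E-box CANNTG was in 9 of 9 against 72.3%. The 3 windows with the element, in capitals, are shown with that of Tac1, the gene with the largest share of its UMIs in adenoma cells outside the endocrine gate among the 9.
Chgb promoter, chr2:132781392-132781691, plus strand: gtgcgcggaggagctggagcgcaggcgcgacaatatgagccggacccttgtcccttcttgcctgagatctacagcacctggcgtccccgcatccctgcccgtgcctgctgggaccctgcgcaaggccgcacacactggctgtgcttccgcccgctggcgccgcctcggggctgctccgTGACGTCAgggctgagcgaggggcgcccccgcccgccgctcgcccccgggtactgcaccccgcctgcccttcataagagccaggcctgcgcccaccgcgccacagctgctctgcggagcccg
Cartpt promoter, chr13:99900634-99900933, minus strand: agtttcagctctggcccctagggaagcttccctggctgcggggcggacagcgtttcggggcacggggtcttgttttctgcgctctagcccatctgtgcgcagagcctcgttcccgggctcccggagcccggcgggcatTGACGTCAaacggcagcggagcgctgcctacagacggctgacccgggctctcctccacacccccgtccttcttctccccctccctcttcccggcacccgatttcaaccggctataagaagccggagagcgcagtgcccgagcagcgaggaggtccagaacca
Sst promoter, chr16:23890795-23891094, minus strand: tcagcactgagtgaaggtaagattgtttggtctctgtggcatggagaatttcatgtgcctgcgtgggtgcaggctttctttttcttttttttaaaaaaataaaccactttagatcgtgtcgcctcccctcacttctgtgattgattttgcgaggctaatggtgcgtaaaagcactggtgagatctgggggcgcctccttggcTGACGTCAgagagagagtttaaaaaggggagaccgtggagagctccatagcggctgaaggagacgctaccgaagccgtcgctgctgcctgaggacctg
Tac1 promoter, chr6:7554811-7555110, plus strand: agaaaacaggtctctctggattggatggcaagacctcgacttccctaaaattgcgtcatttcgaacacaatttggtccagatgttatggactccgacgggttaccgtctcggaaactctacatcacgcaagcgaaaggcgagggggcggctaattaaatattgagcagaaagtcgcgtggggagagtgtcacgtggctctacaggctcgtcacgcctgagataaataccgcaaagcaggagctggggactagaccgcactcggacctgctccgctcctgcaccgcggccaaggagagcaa
A match describes the letters of the window and is not evidence that a factor bound there.

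Across the epithelial cells of all libraries, 8 of the 10 genes had between 76.8% and 98.1% of their UMIs in the 84 endocrine-gated cells. The share was 98.1% of 12493 UMIs for Sst, 96.5% of 310 for Cartpt, 96.3% of 16773 for Cck, 96.2% of 1822 for Gcg, 95.3% of 2988 for Nts, 94.8% of 10705 for Chgb, 79.5% of 3999 for Chga and 76.8% of 21020 for Sct. Tac1 had 68.5% of its 860 UMIs there and 26.3% in adenoma cells outside the endocrine gate. Pnoc was the exception: none of its 12400 epithelial UMIs lay in an endocrine-gated cell, 82.0% were in adenoma cells and 18.0% in other epithelial cells. The pooled shares weight libraries by their depth and cell number. By library the share was 86.4% to 100% for Cartpt, 94.6% to 98.1% for Cck, 93.3% to 97.4% for Gcg and 92.7% to 96.9% for Chgb, but 52.8% to 87.3% for Chga, 47.6% to 87.1% for Sct and 28.2% to 88.0% for Tac1. For Sst it was at least 94.7% in 3 libraries and 0% of 7 UMIs in ApcMin 1. For Nts it was 94.0% and 97.2% in ApcMin and 0% of 7 UMIs and 51.1% of 45 in VApcMinL.

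**Figure D1:**
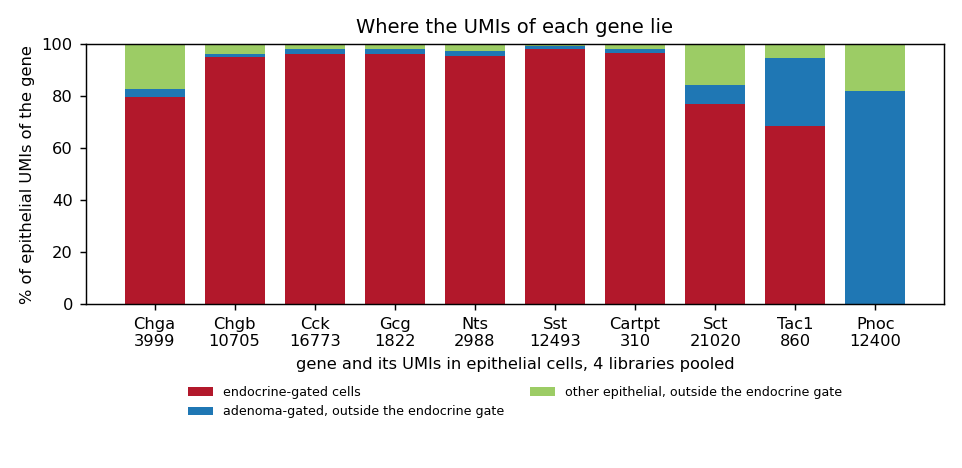
Share of each gene's epithelial UMIs (vertical axis, percent, all 4 libraries summed) that lay in endocrine-gated cells, in adenoma cells outside the endocrine gate and in other epithelial cells outside it, one stacked bar per gene with the UMIs counted. Endocrine-gated cells held 68.5% to 98.1% of the UMIs of 9 genes and 0% of those of Pnoc, of which 82.0% lay in adenoma cells.

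The granins were described first, since they mark the endocrine class as a whole. In endocrine-gated cells Chga was at 6948, 4819, 1232 and 3167 CPM and Chgb at 19231, 16164, 5873 and 9920, with the lowest level of both in VApcMinL 1. In adenoma cells Chga was at 2.10, 1.30, 4.41 and 4.60 CPM and Chgb at 1.69, 1.36, 11.5 and 15.9, so both VApcMinL libraries were above both ApcMin libraries. This order did not hold once the 9 endocrine-gated cells were set aside: Chgb was then at 1.69, 1.36, 0.491 and 1.30 and Chga at 2.10, 1.30, 0.982 and 0.769. Outside the gate 140 adenoma cells had a Chgb UMI, 135 of them a single one and none more than 3. Other epithelial cells outside the gate had more Chga, at 4.40 to 9.28 CPM, in 434 of 5685 cells with a highest count of 33. Of these 698 UMIs, 561 lay in 328 of the 3567 enterocyte-gated cells. Chgb was at 0.656 to 8.86 CPM in the same epithelium, with 214 of its 408 UMIs in 1 enterocyte-gated cell. Non-epithelial cells had 3.67, 1.96, 0.697 and 16.2 CPM of Chgb and 3.48, 5.87, 1.05 and 8.84 of Chga. A few cells set some of these values: in VApcMinL 2, 3 cells of no assigned type held 27 of the 33 Chgb UMIs and 3 held 17 of the 18 Chga UMIs, and in ApcMin 2 a single myeloid cell held 9 of 12 Chga UMIs. In non-epithelial cells of an assigned type other than endothelial, Chgb was at 4.27, 2.10, 0.814 and 3.22 with no more than 1 UMI in a cell, above the adenoma cells outside the gate in every library. Chga was at 3.85, 5.79, 1.22 and 0.536 in them, above those adenoma cells in all libraries but VApcMinL 2. In ApcMin 2 the single myeloid cell was still among them with 9 of their 11 Chga UMIs, so the order in that library rested on this cell. Median depths were 4341.5, 4991, 3063 and 2802.5 UMIs for the non-epithelial cells and 20689, 33140, 17137 and 25658 for the adenoma cells. Of adenoma cells with at least 5 UMIs of Chgb, 7 of 7 were endocrine-gated, and so were 7 of 7 with at least 5 of Chga.

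The 9 endocrine-gated cells within the adenoma gate were 0 of 621, 0 of 445, 2 of 722 and 7 of 2342 adenoma cells. The shares in VApcMinL were 0.277% and 0.299%, and the counts of 0 in ApcMin allow up to 0.483% and 0.674%, so a difference was not detectable at this depth. Of these 9 cells, 7 carried at least 10 UMIs of Chgb and 6 at least 10 of Chga. Their median depth was 26469 UMIs, against 7282 in the 75 endocrine-gated cells of the other epithelium, and whether some hold the RNA of more than one cell was not tested directly. All their UMIs of the 9 genes other than Pnoc remained when cells with the highest doublet scores were removed, 2038 with and without that step. They held 0%, 0%, 56.1% and 54.8% of the adenoma UMIs of those 9 genes, and 0 of the 10170 adenoma UMIs of Pnoc.

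**Figure D2:**
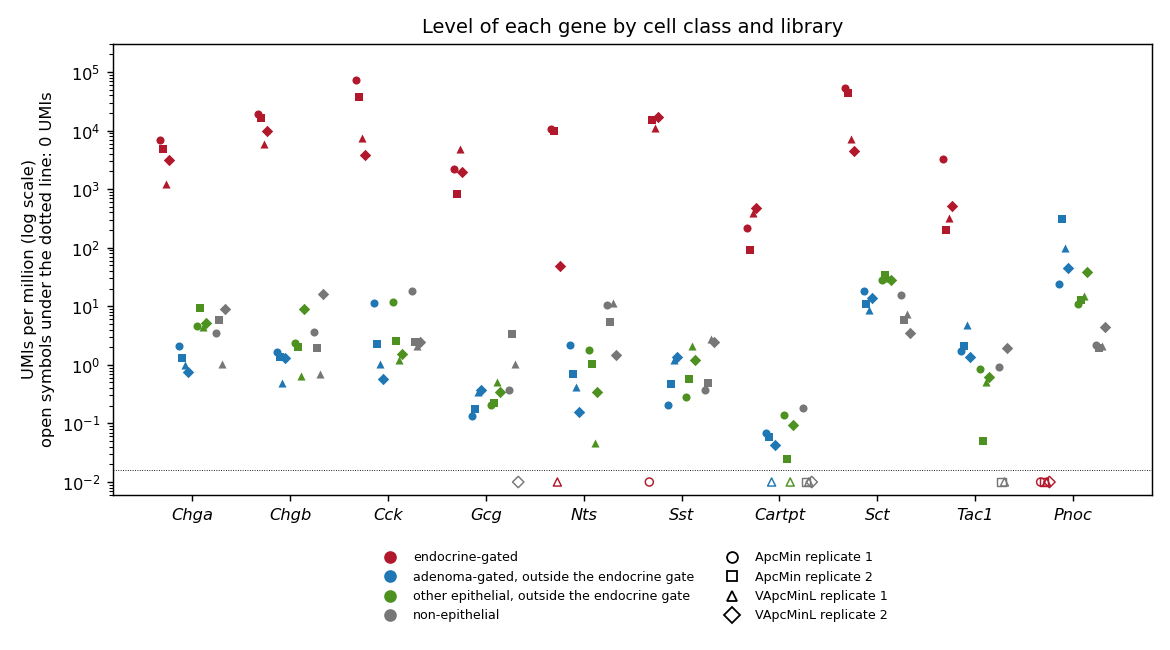
Level of each gene (CPM, log axis) in endocrine-gated cells, in adenoma cells and other epithelial cells outside the endocrine gate and in non-epithelial cells, one symbol shape per library and one colour per class, with open symbols under the dotted line for libraries at 0. The 9 other genes are highest in endocrine-gated cells wherever these have a UMI, whereas Pnoc has none there and is at 23.8 to 311 in adenoma cells.

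The hormone genes Cck and Gcg and the neuropeptide gene Cartpt had most of their epithelial UMIs in endocrine-gated cells in every library, and Sst and Nts in the libraries where they were abundant. Their levels varied widely between libraries, and few cells carried each one. Cck, the hormone of I cells that empties the gallbladder, was at 72846, 36949, 7328 and 3802 CPM of the endocrine-gated cells, higher in both ApcMin libraries than in both VApcMinL libraries. Nts, which slows gut motility, was at 10555, 9638, 0 and 48.5, and 8 of the 84 cells had at least 10 UMIs of it. Sst, the inhibitory peptide of D cells, was at 0, 15073, 11186 and 17239, and in ApcMin 2 all 2984 of its endocrine UMIs lay in 1 cell. Gcg, which encodes the glucagon-like peptides of L cells, was at 2166, 838, 4896 and 1933, with all 481 endocrine UMIs of VApcMinL 1 in 1 cell. Cartpt was at 219, 90.9, 397 and 470. The order of libraries for these genes therefore rested on a handful of cells, and the groups overlapped for Gcg and Sst.

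Outside the endocrine gate these 5 genes had low counts in adenoma cells. The highest count in any of the 4121 adenoma cells outside the gate was 1 UMI for Cartpt, 2 for Sst, 6 for Nts, 8 for Gcg and 9 for Cck. For Cck 235 such cells were positive, 214 of them with 1 UMI, and the level over all adenoma cells, 11.6, 2.31, 1.05 and 0.739 CPM, was below that of the non-epithelial cells, 18.3, 2.45, 2.09 and 2.45, in every library. In non-epithelial cells of an assigned type other than endothelial Cck was at 20.3, 2.10, 2.44 and 1.61, with the adenoma cells of ApcMin 2 then above it. For Sst 121 of 123 positive cells had 1 UMI, and for Gcg 28 of 29. Cartpt was the rarest, with 5 positive adenoma cells outside the gate, each at 1 UMI.

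Within the 84 endocrine-gated cells the genes were combined in recurring ways. At least 10 UMIs of Chgb were in 62 cells, of Sct in 53, of Chga in 40, of Cck in 23, of Tac1 in 13, of Nts and of Gcg in 8 each, of Sst in 7 and of Cartpt in 6. All 6 cells with Cartpt at that level also had Chga, Chgb and Sct. All 13 with Tac1 had Chgb and 9 had Chga, all 8 with Nts had Sct and 5 had Cck, and all 8 with Gcg had Chgb and Sct and 7 had Cck. The 7 cells with Sst had Chgb in 5, Sct in 5 and Chga in 0. Of the 10 genes, 3 reached that level in 26 cells, 4 in 20, 2 in 18, 1 in 6, 5 in 4 and none in 10. Cells of 1 library share depth and free RNA, so these are counts of cells and no test was made of them.

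**Figure D3:**
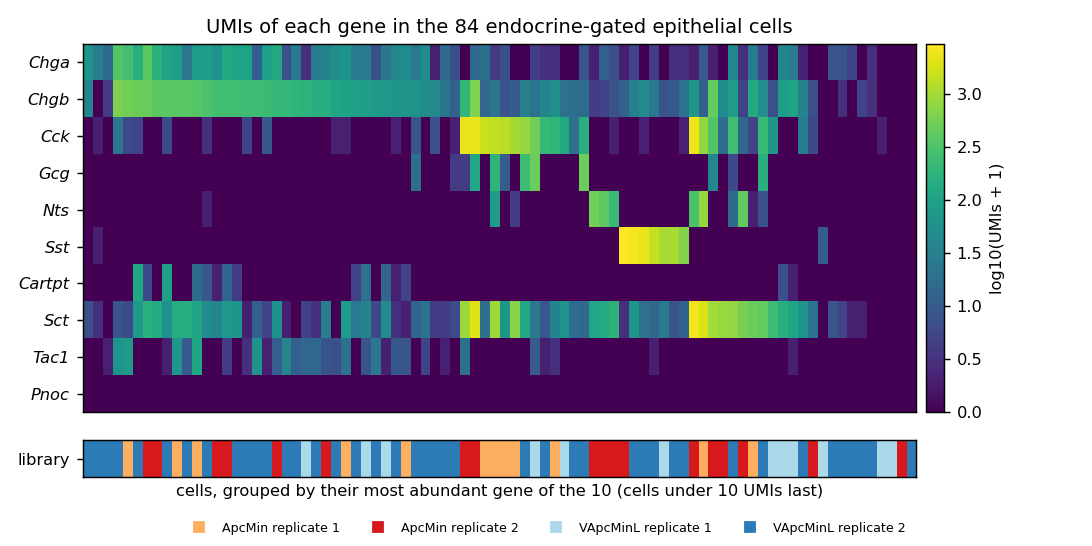
Counts of the 10 genes (rows) in each of the 84 endocrine-gated cells (columns), as log10 of UMIs plus 1 in colour, with a strip giving the library of each cell. Chgb and Sct reach 10 UMIs in 62 and 53 cells, the other hormones in 6 to 23, and the Pnoc row is empty.

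Sct, the hormone of S cells that raises bicarbonate secretion, had a UMI in more adenoma cells outside the endocrine gate than any other of the 10 genes. This rested on full depth: with adenoma cells thinned to 1000 UMIs, Sct was in 2.42%, 1.12%, 1.11% and 0.811% of them and Pnoc in 1.77%, 7.42%, 3.19% and 2.56%. In endocrine-gated cells it was at 52186, 44465, 7166 and 4428 CPM, in adenoma cells outside the gate at 18.1, 10.9, 8.70 and 14.1, and in other epithelial cells outside it at 27.9, 34.3, 30.5 and 28.1. Outside the gate the adenoma cells were lower than the other epithelial cells in every library. Non-epithelial cells were at 15.4, 5.87, 7.32 and 3.44, below the adenoma cells in every library but close to them in ApcMin 1 and VApcMinL 1. The other secretory lineages carried more: goblet-gated cells had 863 UMIs in 223 of 316 cells and were at 156 to 225 CPM over the libraries, tuft-gated cells were at 196 to 410 and Paneth-gated cells at 97.7 to 184, while enterocyte-gated cells were at 19.0 to 25.2. Of the adenoma cells outside the endocrine gate, 850 had a Sct UMI, 610 of them 1, and 33 had at least 5, with a highest count of 88. Sct was therefore detected in each secretory class and, at a lower level, in adenoma cells. The gene lies at chr7:141278330-141279133 on the minus strand.

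Tac1, the precursor of substance P and neurokinin A, had a share of its UMIs in adenoma cells that differed by library. Adenoma cells outside the endocrine gate were at 1.76, 2.07, 4.77 and 1.38 CPM and held 8.20%, 46.1%, 61.8% and 27.2% of the epithelial UMIs. Other epithelial cells outside the gate were lower in every library, at 0.834, 0.0497, 0.515 and 0.633. Non-epithelial cells had no Tac1 UMI in ApcMin 2 and VApcMinL 1, and were at 0.917 and 1.96 in ApcMin 1 and VApcMinL 2, in the last above the adenoma cells. All 4 UMIs of the non-epithelial cells of VApcMinL 2 lay in 1 cell of no assigned type. The positive adenoma cells outside the gate numbered 154, of which 116 had 1 UMI, 6 had at least 5 and 1 reached 11. The UMIs were thus spread thinly over many cells. The gene lies at chr6:7554879-7565834 on the plus strand.

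Pnoc was distributed in another way than the other 9 genes. Adenoma cells were at 23.8, 311, 99.6 and 44.7 CPM (352, 5250, 1424 and 3144 UMIs), other epithelial cells at 11.0, 12.9, 15.0 and 38.5, and non-epithelial cells at 2.20, 1.96, 2.09 and 4.42. Adenoma cells were the highest of the 3 classes in each library, by a wide margin in ApcMin 2 and by little in VApcMinL 2. The other epithelial class is a mixture of types. Within it Paneth-gated cells were at 0 to 176 CPM over the libraries, crypt-gated cells at 18.0 to 44.6 and enterocyte-gated cells at 3.48 to 40.5. In the endocrine-gated cells the count was 0 in all libraries, which allows up to 34.6, 15.2, 30.5 and 6.33 CPM if UMIs are taken as independent. They were not, since few cells held most of them in the adenoma class. By cells, 0 of 12, 18, 12 and 42 allow shares with a UMI of up to 25.0%, 16.7%, 25.0% and 7.14%. These limits, set at 3 counts, were above the adenoma share in ApcMin 1 and VApcMinL 1 and close to it in ApcMin 2 and VApcMinL 2. They are not exact limits like the one given below for the pooled cells. Single libraries could thus hardly tell a share like that of the adenoma cells from 0. Over all libraries the exact limit for 0 of 84 cells was 4.30%, against 9.27% (8.41% to 10.2%) of adenoma cells. Both intervals pool cells, which are not replicates, and cover counting error only, so no conclusion is drawn from them. The adenoma share ran from 7.25% to 17.1% over the libraries, and such shares were among the values the genes were chosen from. The endocrine-gated cells were shallower, with median depths of 8031.5, 8389.5, 3695.5 and 7496 UMIs, so depth and cell class cannot be told apart here. The gene lies at chr14:65400673-65425472 on the minus strand.

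Few cells carried most of the Pnoc molecules. Positive were 45, 76, 63 and 199 adenoma cells, or 7.25%, 17.1%, 8.73% and 8.50%, against 2.33%, 2.80%, 4.23% and 3.92% of other epithelial cells and 0.697%, 1.70%, 0.851% and 2.13% of non-epithelial cells. With each adenoma cell thinned to 1000 UMIs the shares were 1.77%, 7.42%, 3.19% and 2.56%, again with ApcMin 2 highest. Other epithelial cells thinned in the same way had 0.654%, 0.477%, 0.910% and 1.07%, lower in every library. Over all libraries 155 of the 383 positive adenoma cells had 1 UMI and 134 had at least 10, and the cells with at least 10 held 94.3% of the adenoma UMIs. The highest count in 1 cell was 64, 473, 164 and 196, and 5, 7, 6 and 14 cells were enough to hold 50% of the adenoma UMIs of their library. The level of Pnoc in a library therefore rested on a small number of strongly positive cells.

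Pnoc-positive adenoma cells carried endocrine gate genes about as rarely as other adenoma cells. Of 383, 0 had 3 or more of the 14, an exact binomial interval reaching 0.959%, against 9 of 3747 Pnoc-negative cells (0.240%). None of the 14 was found in 343 of the positive cells (89.6%, exact interval 86.1% to 92.4%) and in 3312 of the negative cells (88.4%, 87.3% to 89.4%). Tac1 was detected in 15 of the 383 (3.92%) and in 139 of 3738 (3.72%) of the Pnoc-negative adenoma cells outside the endocrine gate, and Sct in 21.1% and 20.6%. Outside the adenoma gate, Pnoc was in 100 of 1644 crypt-gated cells (1254 UMIs), 84 of 3567 enterocyte-gated cells (837 UMIs) and 8 of 88 Paneth-gated cells (132 UMIs). It was in 4 of 316 goblet-gated cells with 6 UMIs and 1 of 70 tuft-gated cells with 1. The Paneth-gated share, 9.09%, was close to the 9.27% of adenoma cells, on few cells and with a highest count of 61.

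To describe what the positive cells carried beside the gene itself, UMIs were summed over positive and over negative adenoma cells of each library and compared with edgeR's quasi-likelihood test with the library as a block, with Benjamini-Hochberg adjustment over all genes. In Pnoc-positive cells 767 of 12278 genes were called, 6.25% (3.52% higher, 2.73% lower). Of 28 genes tested from the 5 lists of the endocrine programme, 8 were higher and 2 lower, and the median log2 difference was -0.03 against 0.00 over all genes. All 3 tested genes of granins and prohormone processing rose: Pam, which amidates peptides, by 1.31 on the log2 scale (SE 0.14, adjusted p = 0.00129 with edgeR), Cpe, which trims prohormones, by 1.06 (SE 0.13, adjusted p = 0.00201) and Furin, a general convertase, by 0.48 (SE 0.08, adjusted p = 0.00687). Pam was at 119 against 45.3 CPM on average. The endoderm factor Foxa2 rose by 0.79 and kept its call with these 3 without any 1 library.

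The other list genes higher in Pnoc-positive cells were Cadps (1.69, SE 0.33), a priming factor of dense-core granules, the somatostatin-cell factor Hhex (0.79) and the peptide gene Adm (0.58), with the peptide gene Pdyn under 5 CPM in both classes. Maob, which breaks down amines, fell by 1.95 (SE 0.33) and Prox1, a Wnt target in adenomas, fell by 0.49 (SE 0.09). No tested gene was a defining endocrine factor, since Neurod1 and Neurog3 had too few UMIs to pass the filter on low counts. The counts were 8 and 2 also without endocrine-gated cells, where 6.29% of all genes were called, and 5 higher without ApcMin 1, VApcMinL 1 or ApcMin 2, with 1 lower without ApcMin 1 or ApcMin 2. Calls were lost for Adm without ApcMin 1, VApcMinL 1 or ApcMin 2, for Cadps without ApcMin 1, VApcMinL 1 or VApcMinL 2, for Hhex without VApcMinL 1 or ApcMin 2, for Maob without ApcMin 2 and for Prox1 without ApcMin 1. Of the members, Sct fell by 0.72 (edgeR, adjusted p = 0.0297) with all cells and had a difference of -0.46 (adjusted p = 0.151) without the endocrine-gated ones. Chgb fell by 2.72 (edgeR, adjusted p = 0.0334) with them and had a difference of 0.19 (adjusted p = 0.919) without them, the call of Chgb being lost without ApcMin 1, VApcMinL 1 or VApcMinL 2 and that of Sct without VApcMinL 1, ApcMin 2 or VApcMinL 2.

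Genes with the largest differences in Pnoc-positive cells, named here after their values were seen, were not on the endocrine lists. Among those at 20 CPM or more, Otof rose by 4.00 on the log2 scale, from 7.93 to 110 CPM, the glutathione peroxidase gene Gpx5 by 3.38, from 135 to 1463, and the galectin gene Lgals1 by 3.04, from 270 to 1966. The stem cell marker Olfm4 fell by 4.80, the ileal bile acid binding gene Fabp6 by 4.81 and the trefoil gene Tff2 by 3.62. Positive cells had median depths of 21074, 38773.5, 19190 and 28386 UMIs, against 20685.5, 31011, 16772 and 25373 in negative cells, somewhat deeper in every library, and its part in these differences was not tested beyond the thinned classes.

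In Tac1-positive adenoma cells 211 of 12125 genes were called, 1.74% (0.965% higher, 0.775% lower), and of 26 list genes 3 were higher and 1 lower. The 3 were the vesicular amine transporter Slc18a1 (1.04, SE 0.19), Prox1 (0.85, SE 0.09), at 376 against 195 CPM, and Tox3 (0.79, SE 0.10), and the lower one was Ddc (-1.29, SE 0.25), which makes serotonin and dopamine from their precursors. Tac1-positive cells had median depths of 28892, 51141, 17586 and 34892 UMIs against 20571.5, 32639, 17074 and 25471 in negative cells, and the part of depth in these differences was not tested beyond the thinned classes. Prox1 and Tox3 kept their calls without any 1 library, Slc18a1 lost its call without each of them, and Ddc without ApcMin 1 or ApcMin 2. Lef1 rose by 0.78 (SE 0.15, edgeR, adjusted p = 0.0318), a call lost without ApcMin 1, ApcMin 2 or VApcMinL 2 at 0.79, 0.62 and 0.81. Pnoc fell by 3.11 (SE 0.56, edgeR, adjusted p = 0.0270), a call lost without ApcMin 1, VApcMinL 1 or ApcMin 2. Chgb and Chga rose by 4.45 and 3.31 with all cells, calls lost without VApcMinL 2 (both) and without ApcMin 1 or VApcMinL 1 (Chga), but were at -0.51 and -0.40 without the endocrine-gated ones, where neither was called and 1.77% of all genes were.

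In Sct-positive adenoma cells 668 of 12420 genes were called, 5.38% (2.76% higher, 2.62% lower), with 1 of 26 list genes higher and 6 lower. The lower ones included Npy (-1.22, SE 0.09), Cpe (-1.12, SE 0.10), Foxa2 (-0.66), Tox3 (-0.43) and Prox1 (-0.37), so Cpe and Foxa2 went the other way than in Pnoc-positive cells. The count of lower genes was 3 without ApcMin 1 or VApcMinL 1, and Foxa2 lost its call without each library and Tox3 without ApcMin 1 or VApcMinL 1. With cells thinned to 1000 UMIs before they were called positive, 1 list gene was lower and the differences of Cpe and Foxa2 turned to 0.85 and 0.32. Pnoc fell by 1.88 (edgeR, adjusted p = 0.0473), a call lost without VApcMinL 1, ApcMin 2 or VApcMinL 2. Chgb (4.90) and Chga (3.42) were higher with all cells, calls lost without VApcMinL 1 or VApcMinL 2, and at -0.03 and 0.54 without the endocrine-gated ones neither was called, and 5.53% of all genes were. Of single genes named after their values were seen, the defensin gene Defa17 rose by 3.17, Ang4 by 3.24, from 12.4 to 114 CPM, and Spink4 by 2.91, from 161 to 933. Median depths of Sct-positive cells were 26411, 40069, 21833 and 32748.5 UMIs against 18897.5, 30333, 16507 and 23944.5 in negative cells.

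**Figure D4:**
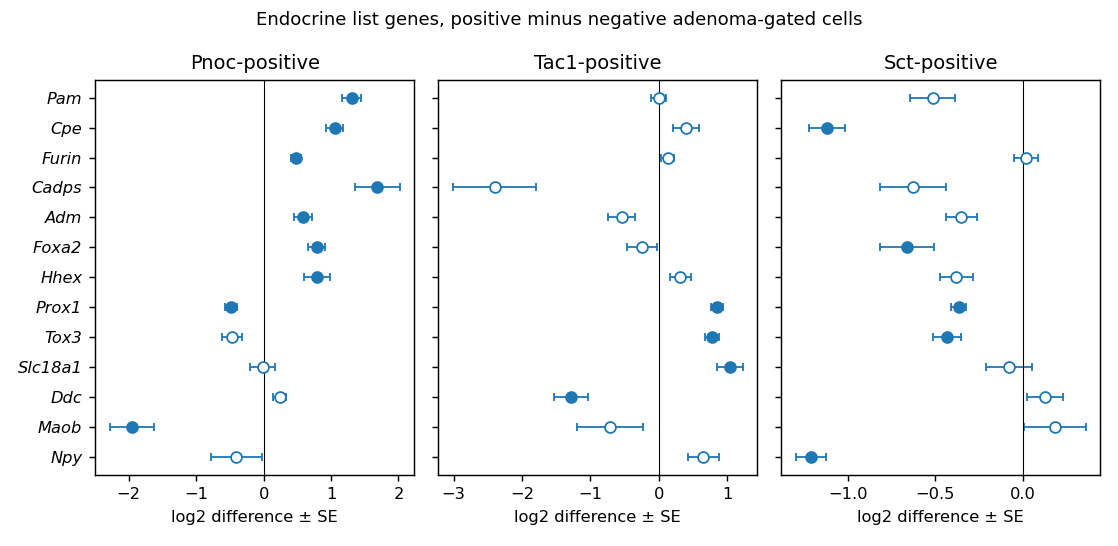
Log2 difference (± SE, edgeR) of 13 genes of the endocrine lists between adenoma cells positive and negative for Pnoc, Tac1 or Sct, filled symbols where the adjusted p was below 0.05. Pam, Cpe and Furin lie above 0 and are filled for Pnoc, Prox1 is filled above 0 for Tac1 and below 0 for Pnoc and Sct, and Cpe is filled below 0 for Sct, where thinned cells give 0.85.

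For the remaining genes the same comparison gave few calls in the lists. In Chga-positive, Nts-positive and Cck-positive cells edgeR called 0 of 26, 0 of 25 and 0 of 26 list genes, and 0.0419%, 0.0669% and 0.092% of all genes. Chgb-positive cells had 1 higher, Gip (3.75), and 1 lower, Adm (-1.02), of 27. Without the endocrine-gated cells Gip was at 0.01 (edgeR, adjusted p = 1.00), 0 list genes were higher, and Adm kept its call at -0.98. Sst-positive cells, compared in both VApcMinL libraries only, had 1 of 29 higher, Npy (1.25). Of all genes 0.337% were called for Chgb and 0.536% for Sst. VApcMinL 1 was left out of the fits for Nts and Chgb, with 1 and 9 positive adenoma cells. Cartpt and Gcg had too few positive cells.

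Because the members were chosen on adenoma against other epithelial cells, that comparison was tested only on other genes of the endocrine programme. In edgeR with the library as a block, 8002 of 13136 genes were called, 60.9% (32.4% higher in adenoma cells, 28.5% lower). Of 43 list genes tested, 15 were higher and 17 lower, with a median log2 difference of 0.05 against 0.07 over all genes. Of the 84 endocrine-gated cells 75 were in the other epithelial class, and among the lower genes the log2 difference was -6.31 (SE 0.31) for Scg2, a granin, -6.11 (SE 0.36), -5.61 (SE 0.49) and -4.84 (SE 0.88) for the peptide hormone genes Pyy, Ghrl and Gip, and -4.05 (SE 0.72) for Neurod1, the last under 5 CPM and named after its value was seen. Pyy was at 2.71, 0.475, 0.631 and 0.968 CPM in adenoma cells and at 98.3, 27.3, 15.8 and 110 in other epithelial cells, with no overlap. Without the endocrine-gated cells Pyy was at -2.13, Ghrl at -0.56 and Gip at -0.61 (edgeR, adjusted p = 0.0600, 0.0891 and 0.179), none of them called, and Scg2 and Neurod1 did not pass the filter. Without VApcMinL 1 the counts were 9 higher and 29 lower.

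Higher in adenoma cells were Prox1 (4.03, SE 0.57), the neuropeptide gene Npy (3.38, SE 0.85), Hhex (2.49, SE 0.28), Cadps (1.70, SE 0.46), Foxa2 (1.32, SE 0.24), Pam (1.26, SE 0.21), Foxa1 (1.21, SE 0.14) and Slc18a1 (0.73, SE 0.21). Prox1, which tuft and endocrine cells and adenomas all use, was at 84.9, 341, 248 and 153 CPM in adenoma cells and 10.2, 4.56, 6.51 and 19.7 in other epithelial cells. Npy was at 5.55, 62.9, 134 and 5.52 in adenoma cells and 1.11, 0.322, 9.97 and 1.91 in the others, higher in each library although the ranges overlapped, and its call was lost without VApcMinL 1 at 3.27. Cadps and Slc18a1 lost their calls without VApcMinL 1 or ApcMin 2. By list, 7 of 12 transcription factors were higher and 3 lower, 4 of 10 hormones higher and 3 lower, 1 of 6 granin and processing genes higher and 3 lower, 2 of 11 granule genes higher and 5 lower, and 1 of 4 serotonin genes higher and 3 lower. With endocrine-gated cells left out of both classes, 17 of 34 were higher and 6 lower with 61.2% of all genes called, and the hormones, transcription factors and granin genes had 0 lower.

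Most receptors of these peptides had few UMIs in the epithelium. Oprl1, the nociceptin receptor, was at 0 UMIs in adenoma and other epithelial cells except in the adenoma cells of VApcMinL 2 (0.0142 CPM), and Cckbr and Ntsr1 were at 0 in adenoma and other epithelial cells of all libraries. Of the receptor list 3 genes passed the filter. Tacr1, the substance P receptor, under 5 CPM and named after its value was seen, was higher in adenoma cells by a log2 difference of 2.68 (SE 0.67, edgeR, adjusted p = 0.0134), at 0.881, 4.63, 0.911 and 1.08 CPM against 0.208, 0.0993, 0.0936 and 0.408. Its call was lost without VApcMinL 1, at 2.59. Gpr160, linked to CART, was lower (-1.53, SE 0.14), as was Sort1, which binds neurotensin and sorts proteins (-0.47, SE 0.10).

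The libraries labelled VApcMinL and ApcMin were compared with the kit as a block. The Wnt target genes of the adenoma gate were Notum, Nkd1, Axin2, Wif1, Dkk2, Apcdd1, Sp5 and Wnt10a. Lef1 is a transcription factor of the Wnt pathway, so the genotype could itself alter which cells met this gate. That was not tested beyond the stricter and changed adenoma gates. In adenoma cells edgeR called 0 of 13210 genes (0%), with 36 at an unadjusted p below 0.05, and 6 (0.0454%) with DESeq2. Without VApcMinL 1 edgeR called 1 gene, Xist. Of the 9 members tested, 0 were called by edgeR and 4 had an unadjusted p below 0.05, and DESeq2 called 1, Chgb. The members were chosen from these same levels per library, so their p-values and calls are a description. The log2 difference of Chgb, VApcMinL against ApcMin, was 3.15 (SE 0.44, edgeR, adjusted p = 1.00) in edgeR and 3.14 (SE 0.64, adjusted p = 0.00178) in DESeq2. Within kits it was 2.62 and 3.61. Without the endocrine-gated cells it was -0.86 (SE 0.82), so the higher Chgb of VApcMinL rested on 9 cells. The same held for Chga, at 1.44 with them and -0.92 without, and 96.8% of the adenoma UMIs of Cartpt (4.86, SE 0.85) were in these cells. Cck (-2.53, SE 0.70) and Nts (-2.26, SE 0.73) had lower values in VApcMinL within both kits, at 0.156 to 2.16 CPM for Nts.

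No difference of Pnoc between the labelled genotypes beyond the spread of the libraries was found, its log2 difference being -0.39 (SE 1.54). The kits disagreed in direction, with 1.96 for version 2 and -2.66 for version 3, so the pooled value describes neither. Tac1 (0.63) and Sct (0.18) also had kits of opposite sign, 1.46 and -0.17 for Tac1 and -0.44 and 0.83 for Sct.

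In the other epithelial cells edgeR called 0 of 13453 genes (0%), with 52 at an unadjusted p below 0.05, and DESeq2 called 16 (0.119%). Of 10 members, 0 were called by edgeR, 6 had an unadjusted p below 0.05, and DESeq2 called 3, Nts, Cck and Sct, all lower in VApcMinL. Here too the members were chosen from these levels, so their p-values and calls are a description. Without VApcMinL 2 edgeR called 12 genes, Nts among them, and without VApcMinL 1 it called 1, Xist. Nts was at 65.1, 48.3, 0.0467 and 1.06 CPM, a log2 difference of -7.00 (SE 0.92) in edgeR. It was lower within both kits, at -9.00 and -5.65, and in ApcMin 1 a single cell held 830 of its 974 epithelial UMIs. Cck was at 448, 184, 34.9 and 57.7 (-2.75), and Sct at 340, 252, 59.5 and 85.4 (-2.11). The other 3 with an unadjusted p below 0.05 had higher values in VApcMinL: Sst (3.94, SE 1.40), at 0.276, 74.4, 53.4 and 257 CPM, Gcg (1.70, SE 0.48), at 13.2, 4.33, 23.0 and 29.1, and Pnoc (0.95, SE 0.37). Groups overlapped for Sst, which was called without the count filter (edgeR, adjusted p = 0.0102) and was at 0.86 without ApcMin 1 and 0.50 without VApcMinL 2. Without the endocrine-gated cells the differences of Nts, Cck and Sct were -2.99, -2.05 and -0.16, and in bulk sums fewer cells of a type and less RNA per cell cannot be told apart.

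**Figure D5:**
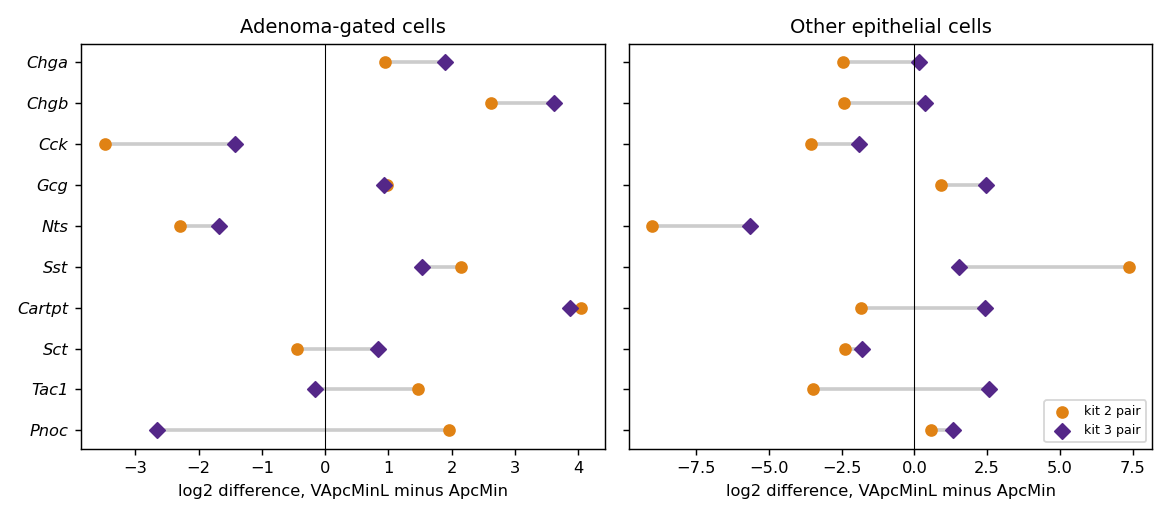
Log2 difference of VApcMinL against ApcMin for each gene within kit version 2 (circles) and version 3 (diamonds), in adenoma cells and in other epithelial cells, 1 library against 1 in each kit and so without error bars. In adenoma cells Pnoc lies at 1.96 and -2.66, Chgb at 2.62 and 3.61, and in other epithelial cells Nts lies at -9.00 and -5.65.

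The share of endocrine-gated cells among epithelial cells was 0.709%, 0.942%, 0.531% and 1.04%, with a mean for ApcMin of 0.826% ± 0.165 (SD, n = 2), compared with 0.787% ± 0.362 (SD, n = 2) for VApcMinL. VApcMinL was lower by a difference of -0.0386 percentage points (two-sided exact permutation p = 1.00), and 2 libraries against 2 cannot give less than 0.333. Within kits it was -0.178 and 0.101, and without VApcMinL 1 it turned to 0.217.

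The genes whose levels ran most like each member were described by Pearson's r of log2(CPM + 1) over 47 sums of a cell class in a library, with no test, since the sums share libraries and depth. Only classes of at least 20 cells in a library were used, so VApcMinL 2 alone gave an endocrine sum. Chga ran with Neurod1 (0.81), Chgb (0.79) and Ppm1n (0.77), and Chgb with Tac1 (0.85), Stxbp5l (0.84) and Snap25 (0.81). Cartpt ran with Asic5 (0.97), Scg2 (0.95) and Isl1 (0.93), and Gcg and Sst ran with Asic5 (0.91 and 0.86), Scg2 (0.91 and 0.87) and Cartpt (0.90 and 0.85). Cck ran with Chga (0.76), Ghrl (0.74) and Asic5 (0.72), and Tac1 with Ambp (0.90), Stxbp5l (0.89) and Chgb (0.85). Sct ran with Gm609 (0.81), 5330417C22Rik (0.81) and the mucin gene Muc3a (0.77). Pnoc ran with Tmprss11e (0.81), the gastrokine gene Gkn2 (0.80) and Pla2g1b (0.80). Nts ran with Rassf9 (0.73) and with the lymphatic endothelial genes Mmrn1 (0.70) and Flt4 (0.69).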

How the data were processed

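Droplet single-cell RNA libraries of dissociated mouse adenomas were used, 2 per group, with the group and kit of each library taken from the labels. The deposited values are raw UMI counts per gene and barcode for all barcodes. Per the submitters' processing notes they were made with Cell Ranger 2.1.1 on mm10 (GRCm38) and analysed with Seurat 3.1.1, while the matrices of kit version 3 name Cell Ranger 3.1.0 in their header. Gene tables had 27998 (version 2) and 31053 (version 3) genes, and the 27514 shared ones were used, which left out 0.192% to 0.568% of UMIs.

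Library totals were 44660305 to 128247396 UMIs. Barcodes with at least 1000 UMIs and at most 20% mitochondrial UMIs were kept. A cell was epithelial with at least 3 of 10 epithelial genes and more epithelial than immune or stromal UMIs. Cell types within gates were assigned from summed marker UMIs. The gate cuts were set after the gate genes' distributions were seen, and the genes described and the lists were chosen with earlier results of these data known. Doublets were left in, and removal of those with the highest Scrublet scores (scanpy 1.11.5) was an alternative. Promoters came from RefSeq.

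Counts were summed per library and class and tested with edgeR 4.0.16 (quasi-likelihood, TMM, filterByExpr with a minimum count of 10, R 4.3.3), Benjamini-Hochberg over all genes tested and a threshold of 0.05, with DESeq2 1.42.0 as an alternative. The scripts were tested on simulated data. The genotype fit had the kit as a block. The labels tie each replicate number to a kit, which pairs the libraries, and deviations from the group means correlated at 0.0949 within kits in adenoma cells and 0.234 in other epithelial cells. Labels do not say that the libraries of a group came from separate mice, so p-values measure the spread between libraries only. CPM are UMIs of a gene per 1000000 UMIs of the class, exact intervals are Clopper-Pearson at 95%, a count of 0 was given the limit of 3 counts, and both cover counting error only. All 10 genes were named, and from each list up to 4 called genes in each direction with the largest change at 5 CPM or more, and the 3 genes most like each member. Alternatives were another cell floor, a mitochondrial limit of 10%, stricter and changed adenoma gates, endocrine gates with 1 gene more or fewer, RLE scaling, no count filter, no kit block, 2 UMIs or thinned cells for positivity, and each library left out. Leaving out endocrine-gated cells, and setting aside unassigned and endothelial cells among non-epithelial ones, was chosen after the data were seen. A gene of the endocrine lists, counted in the totals, is not reported here by name.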

Additional observations from a re-analysis of the deposited data

Results flagged for a closer look

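Nts, a gene of the endocrine class in the epithelium, was also found in cells outside the epithelium. Cells gated as lymphatic endothelial held 36 Nts UMIs in ApcMin 1, in 3 of 21 cells with a highest count of 24, which is 445 CPM. In VApcMinL 1 they held 29 UMIs in 4 of 12 cells with a highest count of 20, which is 661 CPM. Both lie above the limit of 3 counts that a count of 0 allows. These cells are part of the non-epithelial class and held 36 of its 58 and 29 of its 33 Nts UMIs in these libraries, so its Nts level is no measure of free RNA. The libraries of kit version 3 had 1 such cell each, with 0 Nts UMIs. In these cells 0 of the 14 endocrine gate genes were detected. Of the lymphatic endothelial marker genes, 5 of 5 were detected there. The cells were gated on UMIs of these genes other than Prox1, so those add no support. Cells gated as endothelial but not lymphatic held 16 Nts UMIs in 6 of 176 cells, with a highest count of 7 and 0 to 91.0 CPM over the libraries. No test was made.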

How the results depend on the processing

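Between genotypes in adenoma cells the count of genes called, 0, became 1 without the count filter and 6 with DESeq2, and ranged from 0 to 1 over the libraries left out. Members called became 1 with DESeq2. In other epithelial cells the count of 0 became 1 without Scrublet doublets, 14 without the filter, 16 with DESeq2 and 0 to 12 over libraries left out, and members called became 3 without the filter, 3 with DESeq2 and 0 to 1 over libraries left out. The fit without the kit as a replicate block called 0 genes in both classes, and changed no other call.

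Genotype differences changed sign without endocrine-gated cells for Chga (-0.92), Chgb (-0.86) and Sct (-0.34) in adenoma cells and for Chgb (0.22) and Tac1 (1.12) in the others. Sct was also at -0.043 with the stricter gate and -0.036 without Notum and Wif1, and with the other cell floor Cartpt was at -0.19 and Gcg at -1.41 in other epithelial cells. Over libraries left out the signs changed for Pnoc (-1.98 to 1.47), Sct (-0.32 to 0.67), Tac1 (-0.27 to 1.51) and Lef1 (-0.30 to 1.31) in adenoma cells, and for Chgb (-2.24 to 0.13), Cartpt (-1.44 to 1.77) and Tac1 (-2.63 to 1.96) in the others. The difference in endocrine share ranged from -0.295 to 0.217.

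List genes higher in adenoma cells numbered 9 to 13 over libraries left out, and lower ones 6 without endocrine-gated cells, 36 without the filter and 14 to 29 over libraries left out. For Pnoc-positive cells the higher count was 5 to 7 and the lower 1 to 2 over libraries left out, the lower being 1 with the stricter gate, 4 at 2 UMIs and 4 with thinned cells, and Chgb turned to 0.19 without endocrine-gated cells. For Tac1 the higher count was 6 at 2 UMIs. Its lower count was 0 at 2 UMIs, with the other cell floor, without Scrublet doublets and without Notum and Wif1, and 0 to 2 over libraries left out, and Chga and Chgb turned to -0.40 and -0.51 without endocrine-gated cells. For Sct the higher count was 0 at 2 UMIs and without Notum and Wif1, and 0 to 1 over libraries left out. Its lower count was 2 at 2 UMIs, 1 with thinned cells and 3 to 6 over libraries left out. Foxa2 and Cpe turned to 0.32 and 0.85 with thinned cells, and Chgb to -0.034 without endocrine-gated cells. With the looser endocrine gate 0.0197% of the adenoma UMIs of Pnoc were in gated cells. The cause of these changes was not tested, except that the filter and the left-out cells change what is counted. Depth limits the values of genes carried by few cells, since 2 libraries a group and 12 to 42 endocrine-gated cells set their error. Of 164 values of the main counts and shares under alternatives, 121 stayed the same within a set margin, 41 moved beyond it and 2 changed sign. Of 865 values of single genes under alternatives, 736 kept their direction and their side of the threshold. Another 90 lost a call, 16 gained a call and 23 changed sign. A gene called in neither fit counts as kept if its direction held.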
